A study of Mus musculus with 18 samples.

Results

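Among 18 mammary tumors of mice, 5 libraries had little RNA of Epcam, the epithelial cell adhesion molecule, and these are described here against the other 13. A tumor was placed in the low-Epcam group where Epcam made up fewer than 180 CPM (counts scaled to the same fixed total in every library) of its expected counts, so the members were chosen by the Epcam values of these same libraries. A pair of these libraries, Cbfb(het) 10 and Cbfb(het) 14, was averaged as 1 tumor, written Cbfb(het) 10/14, which left 4 low-Epcam tumors of 17 in all. Each is named by its Cbfb genotype label and a number. Every tumor arose without treatment in the mammary gland of a mouse with the MMTV-Cre transgene and 1 Pik3ca allele with the H1047R change, spelled Pikca in the labels. MMTV-Cre makes Cre recombinase from a mouse mammary tumor virus promoter, mainly in mammary epithelium, and H1047R is an activating change in the catalytic subunit of PI3-kinase. The low-Epcam tumors are Cbfb(wt) 2, Cbfb(het) 10/14, Cbfb(het) 1 and Cbfb(het) 12, and the others hold 10 Cbfb(het), 2 Cbfb(wt) tumors and the only Cbfb(homo) tumor. Cbfb encodes the partner subunit that stabilizes RUNX transcription factors on DNA. The labels give no age, sex, strain, batch or histology, nor the kind of change made in Cbfb. The series design says that each tumor came from its own mouse. Even so, the counts of Cbfb(het) 10 and 14 differed by a chi-square of only 4.18 per gene over 16196 genes, where counting noise alone gives 1 and the next closest of 153 pairs of libraries gave 85.9.

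Epithelial cells hold together through E-cadherin (Cdh1) at adherens junctions, claudins and occludin at tight junctions, and keratins inside the cell. In epithelial-mesenchymal transition (EMT) these genes are turned down and cells take up vimentin (Vim), fibronectin and a collagen-rich matrix. The transcription factors of the SNAIL, ZEB and TWIST families are the best known drivers, and SNAIL and ZEB proteins repress epithelial genes by binding E-boxes with the core CAGGTG. Mammary tumors with few claudins and much vimentin are known in mouse models and in patients as claudin-low or spindle-cell tumors.

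Promoter sequences of 6 epithelial genes, Vim and Snai1 are shown here because each gene was called lower or higher and the windows differ in this E-box. They were picked after the windows were seen, and Epcam differs by the rule itself. Each is the run of 250 bases before a RefSeq start site in GRCm38.p6, written 5′ to 3′ along the gene's strand. Capitals mark CAGGTG, or CACCTG where the core lies on the other strand. Epcam (chr17:87635729-87635978, plus strand) has a core whose first base lies 187 bases before the start site and another at 19. Ap1m2 (chr9:21312334-21312583, minus strand), a clathrin adaptor subunit of epithelial cells, has 4, at 81, 51, 21 and 9 bases. Crb3 (chr17:57061951-57062200, plus strand), of the Crumbs polarity complex, has 3, at 118, 63 and 7 bases. Rab25 (chr3:88548280-88548529, minus strand), a GTPase of epithelial membrane recycling, has cores at 64 and 53 bases. Cldn7 (chr11:69965171-69965420, plus strand), a tight junction claudin, has them at 97 and 57 bases in the second of its listed windows and none in the other. Vim (chr2:13574061-13574310, plus strand) has none in its window. Cldn3 (chr5:134985964-134986213, plus strand), another claudin lower in the low-Epcam tumors, has none either, and Snai1 (chr2:167537945-167538194, plus strand), which was higher, has a core at 126 bases.
Epcam: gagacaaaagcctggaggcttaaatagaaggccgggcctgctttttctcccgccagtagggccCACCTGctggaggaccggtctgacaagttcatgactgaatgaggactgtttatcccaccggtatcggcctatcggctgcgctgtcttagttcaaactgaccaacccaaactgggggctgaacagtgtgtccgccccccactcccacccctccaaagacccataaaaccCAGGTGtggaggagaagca
Ap1m2: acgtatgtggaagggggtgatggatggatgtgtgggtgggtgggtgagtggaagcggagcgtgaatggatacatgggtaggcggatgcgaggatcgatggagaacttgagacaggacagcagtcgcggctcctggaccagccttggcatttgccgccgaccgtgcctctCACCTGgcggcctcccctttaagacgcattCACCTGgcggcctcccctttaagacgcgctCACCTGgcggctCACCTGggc
Crb3: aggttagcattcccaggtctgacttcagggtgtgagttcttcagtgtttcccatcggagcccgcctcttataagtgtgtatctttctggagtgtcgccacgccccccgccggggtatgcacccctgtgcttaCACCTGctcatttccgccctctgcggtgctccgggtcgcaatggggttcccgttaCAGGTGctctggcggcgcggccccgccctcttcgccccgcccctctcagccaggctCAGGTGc
Rab25: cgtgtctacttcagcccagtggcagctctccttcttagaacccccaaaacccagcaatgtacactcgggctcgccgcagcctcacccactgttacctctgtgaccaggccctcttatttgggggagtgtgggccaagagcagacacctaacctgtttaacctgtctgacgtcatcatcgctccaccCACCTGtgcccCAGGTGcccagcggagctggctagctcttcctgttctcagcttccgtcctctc
Cldn7: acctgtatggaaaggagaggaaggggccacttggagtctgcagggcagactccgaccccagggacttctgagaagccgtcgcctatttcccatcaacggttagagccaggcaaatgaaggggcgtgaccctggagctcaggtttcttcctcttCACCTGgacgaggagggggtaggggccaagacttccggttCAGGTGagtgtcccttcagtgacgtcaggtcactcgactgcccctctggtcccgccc
Vim: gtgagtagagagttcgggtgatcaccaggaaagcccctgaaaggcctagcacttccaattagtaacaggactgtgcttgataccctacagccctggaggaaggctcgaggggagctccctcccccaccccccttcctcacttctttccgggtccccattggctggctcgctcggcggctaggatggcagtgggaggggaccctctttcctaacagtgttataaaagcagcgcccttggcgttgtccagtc
Cldn3: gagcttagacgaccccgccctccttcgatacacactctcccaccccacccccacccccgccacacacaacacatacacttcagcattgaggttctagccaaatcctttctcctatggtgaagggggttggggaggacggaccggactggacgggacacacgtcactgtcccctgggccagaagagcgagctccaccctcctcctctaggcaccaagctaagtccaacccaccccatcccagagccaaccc
Snai1: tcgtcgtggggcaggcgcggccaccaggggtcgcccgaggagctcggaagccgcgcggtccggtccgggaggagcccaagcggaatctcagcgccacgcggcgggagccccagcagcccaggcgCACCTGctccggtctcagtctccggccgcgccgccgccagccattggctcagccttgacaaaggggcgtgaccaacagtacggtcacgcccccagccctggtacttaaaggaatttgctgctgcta

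The rule's own values leave a gap between the groups. Epcam (ENSMUSG00000045394.9, chromosome 17, 87635979 to 87651129 in GRCm38) stood at 5.49 CPM in Cbfb(wt) 2, at 25.4 and 26.2 CPM in Cbfb(het) 10 and 14, at 77.2 CPM in Cbfb(het) 1 and at 120.2 CPM in Cbfb(het) 12. The other tumors ran from 343.8 CPM in Cbfb(homo) 1 through a median of 631 CPM to 750 CPM. The member nearest the threshold from inside is therefore Cbfb(het) 12, and the nearest outside is Cbfb(homo) 1. Vim (ENSMUSG00000026728.9, chromosome 2), the mesenchymal intermediate filament, was between 2624 and 3862 CPM in the low-Epcam libraries and between 156 and 811 CPM in the others, of which Cbfb(homo) 1 was the highest. No low-Epcam tumor overlapped the others in either gene. Epcam RNA remained countable in every low-Epcam tumor, with 221 to 4199 expected counts.

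**Figure D1:**
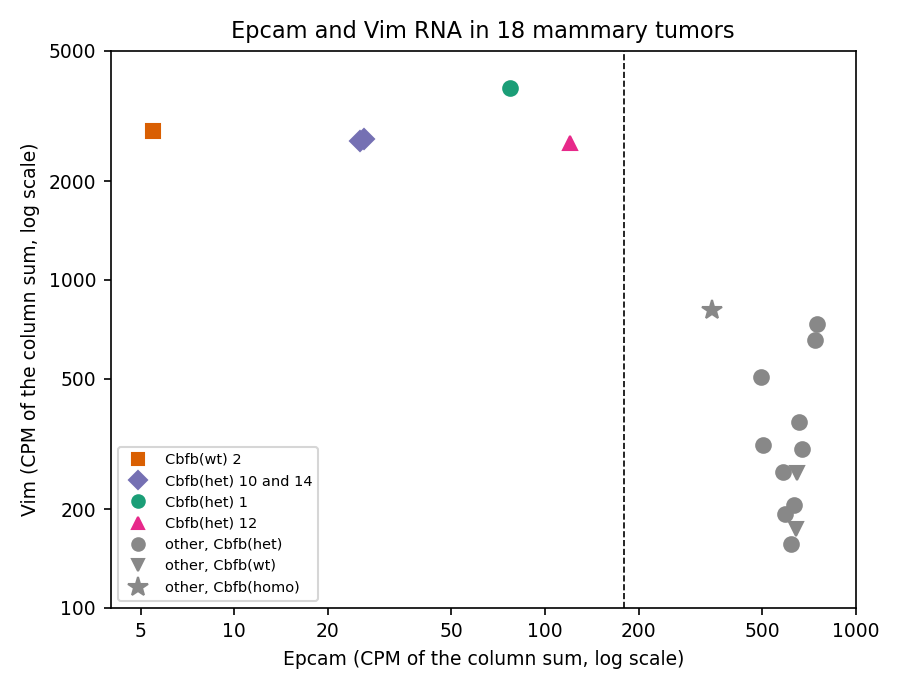
Epcam (horizontal) against Vim (vertical), each as CPM of the library total on log axes, 1 point per library in 18 libraries; the dashed line is the threshold of 180 CPM. The 5 low-Epcam libraries all lie at or above 2624 CPM of Vim, and the Cbfb(homo) tumor (star) lies closest to them.

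Because the groups were set by a value from these libraries, the contrast is given as a description and carries no test. Levels are log2 CPM after TMM scaling with a prior count of 2. A gene is called higher, or lower, where all 4 low-Epcam tumors lay beyond all 13 others and the group means differed by at least 1 on the log2 scale, which is 2-fold. Of 18001 genes with enough counts, 673 (3.74%) were called higher and 816 (4.53%) lower. With no minimum on the fold, 4.84% of genes lay wholly above and 5.55% wholly below. The median difference over all genes was -0.023, with 8762 genes on the positive side. Genes called lower differed by more, since 134 of them differed at least 16-fold against 38 of those called higher. On the deposited TPM, as log2(TPM + 1), the split was 708 higher and 435 lower, and the median over all genes was 0.14, on a scale that understates differences of low genes. Without Cbfb(het) 10/14 there were 1081 higher and 1247 lower, and with its libraries entered as separate tumors 650 and 785. Among Cbfb(het) tumors alone there were 1025 higher and 1180 lower. Without the library labelled Cbfb(wt) 2 there were 721 and 902.

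The Cbfb(homo) tumor was the nearest of the 13 in many genes. It was the highest of the others for 286 of the 673 genes called higher (42.5%) and the lowest for 243 of the 816 called lower (29.8%). The next most frequent, Cbfb(het) 4, held that place for 77 and 148 genes. Across 10629 genes, the low-Epcam tumors correlated with each other at r of 0.77 to 0.87 and with the other tumors at 0.52 to 0.81. Cbfb(het) 10/14 was the exception to a clean separation, since its r of 0.808 with Cbfb(homo) 1 was above its 0.769 with Cbfb(het) 1 and its 0.8025 with Cbfb(het) 12, and below only its 0.83 with Cbfb(wt) 2. Depth and RNA measures overlapped: 34933110 to 40238450 expected counts per low-Epcam library against 33210207 to 40974130, and 1.37% to 2.32% mitochondrial counts against 1.12% to 2.29%.

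Of 28 cell adhesion and junction genes, 15 were called lower and none higher, beside 4.53% and 3.74% of all genes. The median difference was -3.20 against -0.023 for all genes. The mean level of the list was 2.66 in Cbfb(wt) 2, 4.71 in Cbfb(het) 10/14, 3.39 in Cbfb(het) 1 and 4.43 in Cbfb(het) 12, against 6.26 to 7.48 in the others. All 28 had a negative difference. Their summed level was 699, 5518, 617 and 870 CPM in the same order against 2957 to 9461 CPM, so by this sum Cbfb(het) 10/14 lay inside the range of the others. In bulk RNA, fewer epithelial cells and less RNA of a gene per cell cannot be told apart, here and in what follows. From here on, 4 values in a row are always in the order Cbfb(wt) 2, Cbfb(het) 10/14, Cbfb(het) 1, Cbfb(het) 12.

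Cdh1 (ENSMUSG00000000303.12), which encodes E-cadherin, stood at 3.64, 6.53, 5.59 and 6.996 log2 CPM against 8.72 to 9.58 (median 9.25) in the others. Its group means were 5.69 ± 1.49 (SD, n = 4) and 9.16 ± 0.28 (SD, n = 13). Every low-Epcam tumor lay below every other, and Cbfb(wt) 2 was the lowest, with 4.62 TPM against a median of 194 TPM. Cldn7, whose promoter is printed above, stood at -0.17, 1.27, 4.03 and 4.65 against 5.62 to 8.08 (median 7.28). Cldn3 stood at -0.29, 1.89, 3.97 and 4.71 against 5.38 to 8.36 (median 7.47), and the tight junction protein occludin (Ocln) at -1.08, 0.59, 1.46 and 3.07 against 4.65 to 5.94 (median 5.42). These genes share an order, lowest in Cbfb(wt) 2 and highest in Cbfb(het) 12. Cldn4 broke it, with 3.25, 6.34, 3.35 and 5.27 against 6.55 to 9.08, where Cbfb(het) 10/14 came close to the lowest of the others. Crb3 ran from 0.31 to 1.61 in the low-Epcam tumors against 4.10 to 5.65. Desmosome genes, by contrast, mostly overlapped. Dsg2 was called lower, and Dsp, Pkp1, Pkp3, Dsc2 and Jup were not, with differences from -3.09 (Pkp3) to -1.74 (Jup).

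**Figure D2:**
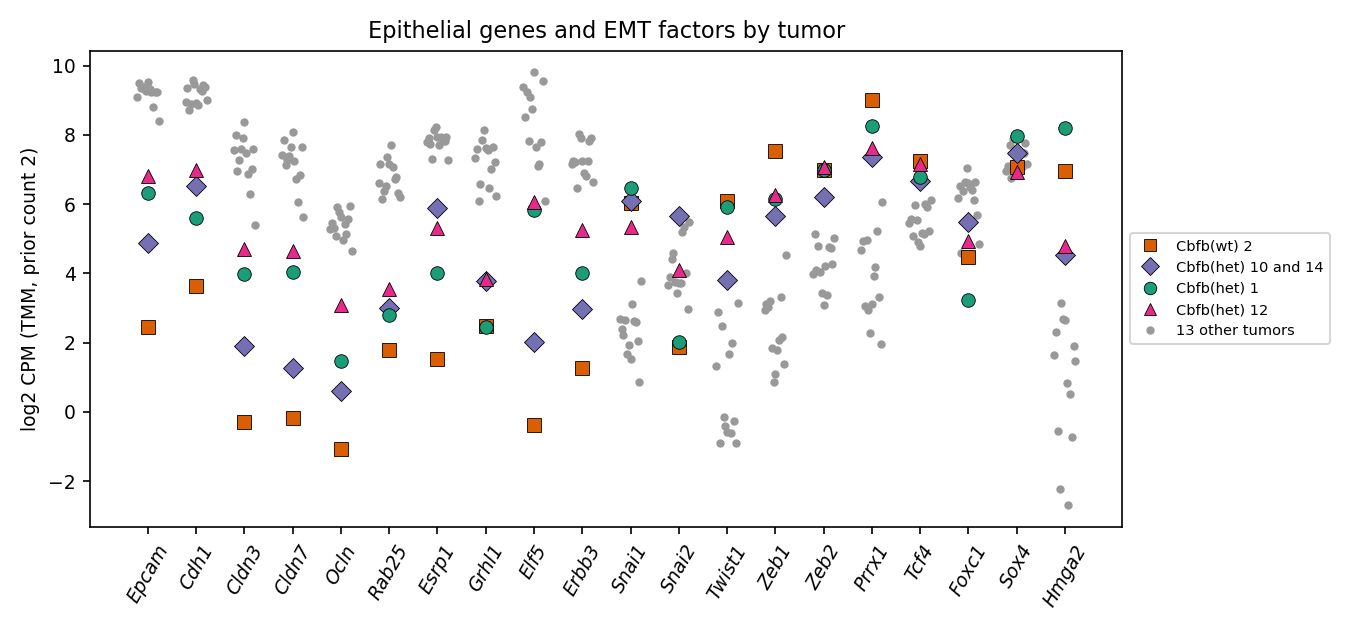
Levels (log2 CPM, vertical) of 10 epithelial genes, from Epcam to Erbb3, and 10 EMT factors, from Snai1 to Hmga2; each colored symbol is a low-Epcam tumor and each grey dot another tumor. The epithelial genes lie below the grey dots in all 4, while Snai2, Foxc1 and Sox4 overlap them and the other 7 EMT factors lie above.

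The transcription and splicing regulators of the epithelial state went with the junction genes. Of 18 listed, 10 were called lower and none higher, beside 4.53% and 3.74% of all genes. The median difference was -2.99, with list levels of 1.52 to 3.83 against 5.65 to 6.17. Esrp1, which sets epithelial splice forms, stood at 1.52, 5.88, 4.01 and 5.31 against 7.28 to 8.24 (median 7.83), and its paralog Esrp2 was called lower as well. Grhl1, a grainyhead factor of epithelial junction genes, stood at 2.47, 3.78, 2.44 and 3.84 against 6.10 to 8.14 (median 7.32). Grhl2 and Ovol2 were also called lower. Among these regulators, Elf5, the ETS factor of alveolar luminal cells, had the largest difference of group means (-4.92). It stood at -0.38, 2.01, 5.84 and 6.06 against 6.09 to 9.80 (median 8.51), so Cbfb(het) 1 and 12 lay just under the lowest of the others. Trp63, Klf5, Foxa1 and Tfap2a overlapped.

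Genes of epithelial membrane traffic and surface proteolysis were lower as well, with a median of -3.61. Of 14, 9 were called lower, beside 4.53% of all genes. Rab25 stood at 1.79, 2.99, 2.79 and 3.54 against 6.14 to 7.71 (median 6.73), with all 4 low-Epcam tumors well below the others. Ap1m2 stood at -0.53, 2.85, 3.15 and 3.97 against 5.69 to 7.42 (median 6.88). St14, which encodes the membrane protease matriptase, stood at 2.21, 3.42, 4.91 and 6.08 against 7.37 to 8.61, and its partner Prss8 and inhibitors Spint1 and Spint2 were called lower too. Muc1, the luminal surface mucin, overlapped because Cbfb(het) 1 at 5.05 and Cbfb(het) 12 at 4.67 stood above the lowest other tumor at 4.66.

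The share of promoter windows with the CAGGTG core was larger for genes lower in the low-Epcam tumors, which is given as a description with no test. The core was present in at least 1 window of 38.3% of the genes called lower (226 of 590 with a window), 13.99% of those called higher (74 of 529) and 19.3% of all genes that passed the filter (2443 of 12632). Over all 27025 genes in the table the share was 19.4%. Of the 60 genes in the junction, regulator and membrane lists, 33 had a window, and 19 of these (57.6%) held the core. The 19 had a median difference of -3.77, with 13 called lower, and the 14 without it had a median of -2.84, with 7 called lower. Of all 18001 genes, 4.53% were called lower. The related cores CACGTG and CAGCTG were in 7.80% and 16.9% of the genes called lower and in 9.15% and 14.7% of those that passed. The AP-1 motif TGANTCA was in 6.95% and 6.43%, and the grainyhead motif AACCGGTT in 0.17% and 0.22%. The median GC content of the windows was 57.6% for genes called lower, 60.8% for those called higher and 58.8% for all that passed. A match is only a run of letters in the window and was not tested as a binding site.

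Luminal keratins were lower, and basal keratins differed among the low-Epcam tumors. Krt7, Krt8, Krt18 and Krt19 were called lower of 5 luminal keratins (median -3.79), beside 4.53% of all genes. Krt19 stood at 2.83, 4.14, 6.53 and 6.91 against 9.05 to 10.84 (median 9.67). Krt8, the partner of Krt18 in simple epithelium, stood at 6.46, 4.25, 8.24 and 8.32 against 8.91 to 10.84 (median 9.84), so Cbfb(het) 1 and 12 kept much of it. Of 7 basal keratins only Krt15 was called, as lower, beside 4.53% of all genes. All 7 had a negative difference (median -3.70), beside 9239 of 18001 genes. Their list levels were 7.51, 9.78, 4.15 and 3.54 against 7.34 to 11.96 in the others. Krt6a, a keratin of stressed and follicular epithelium, stood at 9.06, 11.54, 4.89 and 4.601 against 7.09 to 13.10 (median 11.57), which places Cbfb(wt) 2 and Cbfb(het) 10/14 inside the range of the others. Krt16 did the same, at 8.15, 9.84, 3.66 and 0.23 against 5.66 to 12.10. Krt6a and Krt6b are close paralogs, and how RSEM shared their reads was not checked.

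EMT transcription factors were higher, though not in every family. Of 14 listed, 8 were called higher and none lower, beside 3.74% and 4.53% of all genes. The median difference was 2.68, with list levels of 4.51 to 4.99 against 1.60 to 3.56. Snai1 stood at 6.04, 6.10, 6.46 and 5.33 against 0.87 to 3.79 (median 2.40), or 51.5 to 89.1 TPM against 1.70 to 14.7 TPM. Its paralog Snai2, also called Slug, stood at 1.87, 5.65, 2.02 and 4.10 against 2.97 to 5.48 (median 3.88). Cbfb(wt) 2 and Cbfb(het) 1 were thus below all others for Snai2, and Cbfb(het) 10/14 above all. Zeb1, with group means of 6.40 ± 0.80 (SD, n = 4) and 2.41 ± 1.05 (SD, n = 13), stood at 7.53, 5.67, 6.13 and 6.25 against 0.86 to 4.54 (median 2.16). Zeb2 stood at 6.98, 6.20, 6.98 and 7.08 against 3.09 to 5.14 (median 4.22). Per length, Zeb1 had 14.2 to 60.01 TPM in the low-Epcam tumors and 0.33 to 7.44 TPM in the others.

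Twist1, a helix-loop-helix factor of mesoderm and neural crest, stood at 6.07, 3.80, 5.90 and 5.04 against -0.90 to 3.15 (median -0.14). Twist2 overlapped because of Cbfb(het) 10/14 alone, at -0.15 beside 3.82, 2.55 and 1.43 in the other low-Epcam tumors and -4.25 to 0.60 in the others. Prrx1, a homeobox factor of limb and craniofacial mesenchyme, stood at 8.99, 7.35, 8.26 and 7.63 against 1.96 to 6.05 (median 3.91). It had the highest TPM of the 8 called factors in Cbfb(wt) 2, at 163 TPM. Prrx2 and the E protein Tcf4 were called higher as well. Hmga2, a chromatin protein of embryonic tissue, had the largest difference of the list, at 6.94, 4.53, 8.19 and 4.77 against -2.702 to 3.14 (median 1.46). Foxc1 (-1.63), Foxc2 (0.33) and Sox4 (0.06) were not called. For Snai1, Twist1, Zeb1 and Prrx1 the highest of the others was Cbfb(homo) 1.

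Mesenchymal cytoskeleton and surface genes were higher in part, with a median difference of 1.91. Of 16, 6 were called higher, beside 3.74% of all genes. Fn1, fibronectin, stood at 12.21, 12.90, 12.54 and 12.56 against 6.505 to 11.79 (median 8.41), and Cbfb(homo) 1 was the highest of the others. S100a4, a calcium-binding protein of migrating cells, stood at 10.30, 7.84, 8.51 and 7.51 against 2.53 to 5.66 (median 3.61). Cdh2, N-cadherin, stood at 4.51, 4.91, 6.84 and 5.79 against 1.93 to 4.36 (median 2.65). Cbfb(wt) 2 was just above the highest other tumor for Cdh2, while Cbfb(het) 1 was well above. The galectin Lgals1 (3.43), the receptor kinase Axl (1.78) and moesin (Msn, 1.48) were also called. The hyaluronan receptor Cd44 (0.65), tenascin-C and periostin overlapped.

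Of 15 fibrillar and associated collagens and their crosslinking enzymes, 9 were called higher, beside 3.74% of all genes. All 15 had a positive difference, and the median was 3.85. Col1a1 stood at 12.93, 14.72, 11.85 and 14.03 against 5.65 to 11.30 (median 8.53), which is 930 to 6586 TPM against 13.04 to 668 TPM. Its group means were 13.38 ± 1.26 (SD, n = 4) and 8.82 ± 1.62 (SD, n = 13). Col6a3 of the beaded-filament collagen stood at 11.07, 11.82, 9.87 and 10.59 against 3.61 to 8.19 (median 5.84). Cbfb(het) 1 had the lowest level of both among the low-Epcam tumors. The crosslinking enzymes Lox, Loxl1 and Loxl2 had differences of 3.05, 2.90 and 3.33 and overlapped. Fibroblast markers were on the same side, with 12 of 12 positive and 1 called (Pdgfra), beside 8762 of 18001 positive and 3.74% called higher over all genes. Their summed level was 1219 to 3072 CPM in the low-Epcam tumors and 224 to 1890 CPM in the others, none was at 0, and their part in the collagen and EMT factor results was not tested.

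Matrix proteases and their inhibitors were higher as a list, though most members were not called. List levels were 7.19 to 8.41 against 4.59 to 6.92 in the others. A positive difference was found for 16 of 18 members, beside 8762 of 18001 genes. Of 18 protease and inhibitor genes, Mmp2, Mmp14 and Adamts4 were called higher and none lower (median 2.47), beside 3.74% and 4.53% of all genes. Mmp14, the membrane-bound collagenase that activates Mmp2, ran from 10.04 to 10.84 in the low-Epcam tumors against 6.85 to 8.86. Adamts4, an aggrecanase, stood at 7.02, 7.02, 7.16 and 7.69 against 3.30 to 5.42 (median 4.09). Mmp13, a collagenase of cartilage and bone, separated the low-Epcam tumors themselves, at 6.06, 12.65, 6.63 and 10.43 against 4.10 to 7.83. Mmp12, the macrophage elastase, stood at 3.86, 7.37, 4.77 and 3.02 against 6.503 to 9.02 (median 7.63), below the others in all but Cbfb(het) 10/14. Of 10 integrins, Itga5 and Itgb1, which pair as the fibronectin receptor, were called higher, and Itgb6, an epithelial subunit that pairs with Itgav, lower. Those counts also stand beside 3.74% and 4.53% of all genes. Itga5 stood at 8.84, 8.34, 9.91 and 8.52 against 4.63 to 7.94, and Itgb6 at -1.24, 2.07, 0.66 and 2.39 against 3.41 to 5.73.

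Of 21 TGF-beta and activin pathway genes, Ltbp1 and Bmp1 were called higher and none lower (median 0.86), beside 3.74% and 4.53% of all genes. Ltbp1, which tethers latent TGF-beta to the matrix, stood at 7.90, 7.06, 8.49 and 7.82 against 4.75 to 5.71 (median 5.45). The ligands Tgfb1 (1.05), Tgfb2 (1.00) and Tgfb3 (-0.60) and the receptor Tgfbr2 (1.01) overlapped. Tgfbr1 lay wholly above, at 7.01 to 7.48 against 5.71 to 6.92, but by under 2-fold. Inhba, the activin A subunit, overlapped only by Cbfb(het) 12, at 8.31, 9.97, 7.72 and 7.20 against 3.82 to 7.44. The BMP antagonist Grem1 stood at 2.33, 7.01, 4.602 and 5.15 against -1.15 to 3.68.

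Of 24 receptor tyrosine kinases and ligands, Pdgfra, Fgfr1 and Hgf were called higher and Erbb2 and Erbb3 lower (median 0.54), beside 3.74% and 4.53% of all genes. Erbb3, the neuregulin receptor that couples strongly to PI3-kinase, stood at 1.26, 2.96, 4.02 and 5.26 against 6.48 to 8.03 (median 7.24). Erbb2 ran from 4.54 to 5.69 against 6.44 to 7.36. Pdgfra, a receptor of mesenchymal cells, stood at 9.55, 8.37, 7.95 and 7.602 against 2.54 to 5.80 (median 4.18). Hgf, the ligand of Met, ran from 3.11 to 5.21 against 0.28 to 2.85, and Fgfr1 from 8.61 to 8.88 against 6.49 to 7.84. Kit (-3.39) overlapped, with Cbfb(het) 12 at 6.52 inside the range of the others. Egfr, Met and Igf1r were not called.

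The genes altered in the model were not themselves separated. Pik3ca stood at 7.67, 7.39, 7.30 and 7.21 against 6.49 to 7.42. Cbfb stood at 4.27, 7.0, 4.51 and 5.85 against 4.21 to 5.88 (median 5.60), so the low-Epcam tumors hold both the highest Cbfb level of all and levels close to the lowest, that of Cbfb(homo) 1. The library labelled Cbfb(wt) 2, at 4.27, lay under the other Cbfb(wt) tumors, at 5.88 and 5.28. Among the RUNX partners, Runx2, the osteoblast and chondrocyte factor, was called higher, at 6.56, 5.77, 6.03 and 6.01 against 3.18 to 4.70 (median 4.002). Runx1 (-0.06) and Runx3 (1.03) overlapped. Pik3r1, the regulatory subunit, stood at 7.01, 8.79, 7.06 and 7.76 against 8.52 to 9.91, below the others in all but Cbfb(het) 10/14.

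The Cbfb label is independent of the rule, so it was tested: 3 of 13 Cbfb(het) tumors (23.1%) and 1 of 3 Cbfb(wt) tumors (33.3%) were low-Epcam, and Fisher's exact test, two-sided, gave p = 1. The Cbfb(wt) share rests on the library labelled Cbfb(wt) 2 alone, whose Cbfb level of 4.27 lies next to that of Cbfb(homo) 1 (4.21). Without it the share is 0% of the remaining Cbfb(wt) tumors. With 3 Cbfb(wt) tumors, a difference in share could be large and go unseen. The Cbfb(homo) tumor was in the other group and was not tested.

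Of 27 cell cycle genes only Cdkn2a was called, as higher, and the median difference was 0.17. That count is near the 3.74% of all genes called higher. Cdkn2a, whose transcripts encode the inhibitor p16Ink4a and the p53 activator p19Arf, stood at 6.93, 6.58, 8.48 and 7.53 against 1.34 to 6.17 (median 2.704), and its highest other tumor was Cbfb(wt) 1. The gene-level counts do not tell those transcripts apart. Mki67 (-0.18) overlapped. Cdkn1a, a p53 target that encodes p21, stood at 5.86, 6.17, 7.61 and 4.31 against 6.47 to 8.52. Ccnd2, cyclin D2, was split, at 3.62, 8.35, 7.59 and 7.45 against 4.42 to 6.77, so Cbfb(wt) 2 was below all other tumors and the remaining low-Epcam tumors above them.

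Among genes called higher, those with the largest differences include genes outside the lists. Capn6, a calpain family member without protease activity, stood at 6.77, 6.24, 4.84 and 5.97 against -2.41 to 4.16 (median -1.03), and its highest other tumor was Cbfb(het) 4. Il1rl1, the IL-33 receptor ST2, stood at 9.13, 3.11, 5.88 and 8.13 against -1.68 to 2.68 (median 0.02). Bcat1, the cytosolic branched-chain aminotransferase, stood at 6.26, 5.54, 7.30 and 5.91 against -0.30 to 3.17 (median 0.83). Il1rl1 spread widely within the low-Epcam tumors, and Bcat1 was more even. Cthrc1, a secreted protein of collagen-producing cells, stood at 8.45, 7.62, 6.65 and 8.86 against -0.33 to 5.49 (median 3.07). Gdnf, the ligand of Ret signaling, stood at 4.81, 3.30, 4.91 and 4.15 against -2.35 to 0.95. The rest of the 15 genes called higher with the largest difference were Hmga2, Tnn, Scrn1, Map1a, Col6a3, Ptprn, Tspan11, Mrgprf, S100a4 and Flnc, with differences of 4.58 to 5.26.

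The 15 genes called lower with the largest differences were Rptn, Klk14, Defb6, Krt27, Atp12a, Krt71, Klk6, Gsdma, Asprv1, Klk11, Krt87, Cst6, Gjb6, Them5 and Klk10. Rptn, repetin of the cornified envelope, had 218, 36, 1 and 1 expected counts in the low-Epcam tumors and 588 to 61162 in the others. Krt27, a keratin of the inner root sheath, had 0, 0, 0 and 1 against 8 to 22068 counts, and Defb6, a beta-defensin, 1, 0, 0 and 0 against 2 to 5855. The low-Epcam tumors were thus at or near 0 for Krt27 and Defb6, while the others spread over a wide range that reached almost as low, with Cbfb(het) 4 the lowest of them. No fold is given for these genes because it would rest on the prior count. Klk6 and Klk10, kallikrein proteases, kept 3 to 951 and 46 to 608 counts in the low-Epcam tumors.

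**Figure D3:**
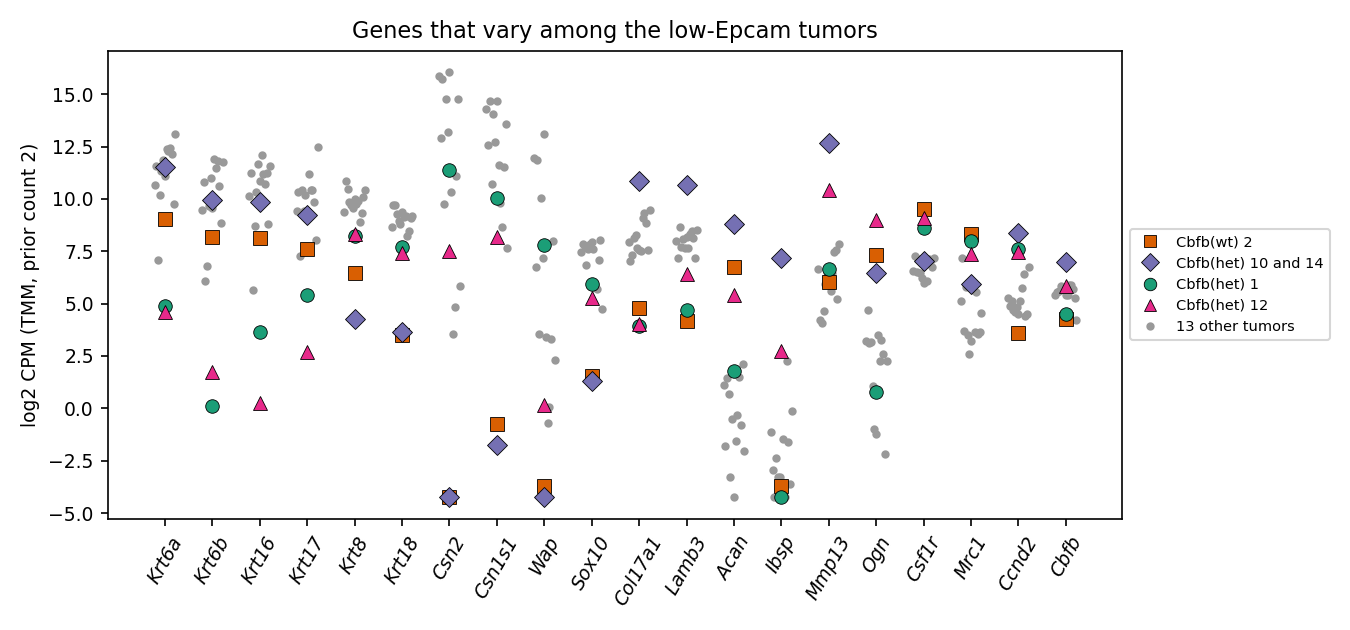
Levels (log2 CPM, vertical) of 20 genes that vary among the low-Epcam tumors; colored symbols are the 4 low-Epcam tumors and grey dots the 13 others. The casein Csn2 spans -4.25 to 11.40 and the bone protein Ibsp -4.25 to 7.16 within the low-Epcam tumors.

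The 4 low-Epcam tumors were not alike in what they kept. Milk and alveolar genes had list levels of 0.01, 0.69, 7.57 and 4.52 against 4.75 to 11.78. Of 13, Ltf, Aldh1a3 and Mfge8 were called lower, beside 4.53% of all genes. The summed level of these 13 genes was 555, 961, 6947 and 1518 CPM against 4139 CPM or more in the others. Csn2, beta-casein, had 0 and 0 expected counts, after rounding, in Cbfb(wt) 2 and Cbfb(het) 10/14 but 91968 in Cbfb(het) 1 and 6877 in Cbfb(het) 12, against 461 to 2051752 in the others. Cbfb(het) 1 also kept whey acidic protein (Wap), with 7484 counts beside 1, 0 and 40. Sox10, a factor of mammary progenitors and of neural crest, was low in the same tumors, at 1.54, 1.29, 5.95 and 5.26 against 4.75 to 8.04. Cbfb(wt) 2 and Cbfb(het) 10/14, with no Csn2 counts, were the tumors with Krt6a and Krt16 inside the range of the others.

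Cbfb(het) 10/14 stood apart in hemidesmosome and laminin-332 genes. The list of 8 had levels of 6.13, 9.68, 6.57 and 6.23 against 6.74 to 8.81, so this tumor was above all others and the remaining low-Epcam tumors below all. Col17a1, the hemidesmosome collagen, stood at 4.78, 10.86, 3.95 and 4.05 against 7.05 to 9.45, and Lamb3, of laminin-332, at 4.16, 10.65, 4.69 and 6.43 against 7.16 to 8.67. Itgb4, the hemidesmosome integrin, followed at 4.52, 9.13, 5.22 and 5.42 against 6.70 to 8.69. Plec, the plectin linker, was the only member called, as higher (1.70), beside 3.74% of all genes. Cartilage and bone genes were also split: Acan, aggrecan, stood at 6.73, 8.78, 1.79 and 5.41 against -4.25 to 2.12, and Ibsp, bone sialoprotein, at -3.69, 7.16, -4.25 and 2.76 against -4.25 to 2.28. None of the 12 cartilage and bone genes that passed the filter was called.

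Each low-Epcam tumor had genes far above all other tumors. In Cbfb(het) 10/14, Tcfl5, a germ-cell helix-loop-helix factor, had 2661 counts against at most 40 elsewhere, the meiotic cohesin subunit Stag3 had 2621 against at most 77, and the retinol carrier Rbp4 3970 against at most 154. In Cbfb(wt) 2 these were Angptl7, Gad1 and Rcan2, of which Angptl7 had 2075 counts against at most 201. In Cbfb(het) 1 they were Slc9a2, Hdx and the mast cell tryptase Tpsab1, which had 2747 against at most 215. In Cbfb(het) 12 they were Ankrd1, Emx2 and Col6a4, and the stretch-responsive Ankrd1 had 2261 against at most 207. These 12 genes were picked as the largest gaps and describe single tumors.

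Markers of other cells moved with the groups in part. Macrophage markers had levels of 8.04, 6.14, 7.65 and 7.49 against 5.15 to 6.72, above all others in each low-Epcam tumor but Cbfb(het) 10/14. All 11 had a positive difference and Cd68 was called (1.16), beside 8762 of 18001 positive and 3.74% called higher over all genes. Their summed level was 1134 to 5792 CPM against 730 to 2996 CPM, and none was at 0. Csf1r, the CSF1 receptor, stood at 9.52, 7.04, 8.59 and 9.10 against 5.995 to 7.25, and the mannose receptor Mrc1 at 8.33, 5.92, 8.01 and 7.38 against 2.61 to 7.16. Endothelial markers were at 4.74 to 5.14 against 2.92 to 5.40 (11 of 11 positive, none called, summed 379 to 489 CPM against 100 to 555 CPM, none at 0). Pericyte (median 0.74) and myoepithelial markers (0.68) overlapped, with none called. Their part in the results was not tested.

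**Figure D4:**
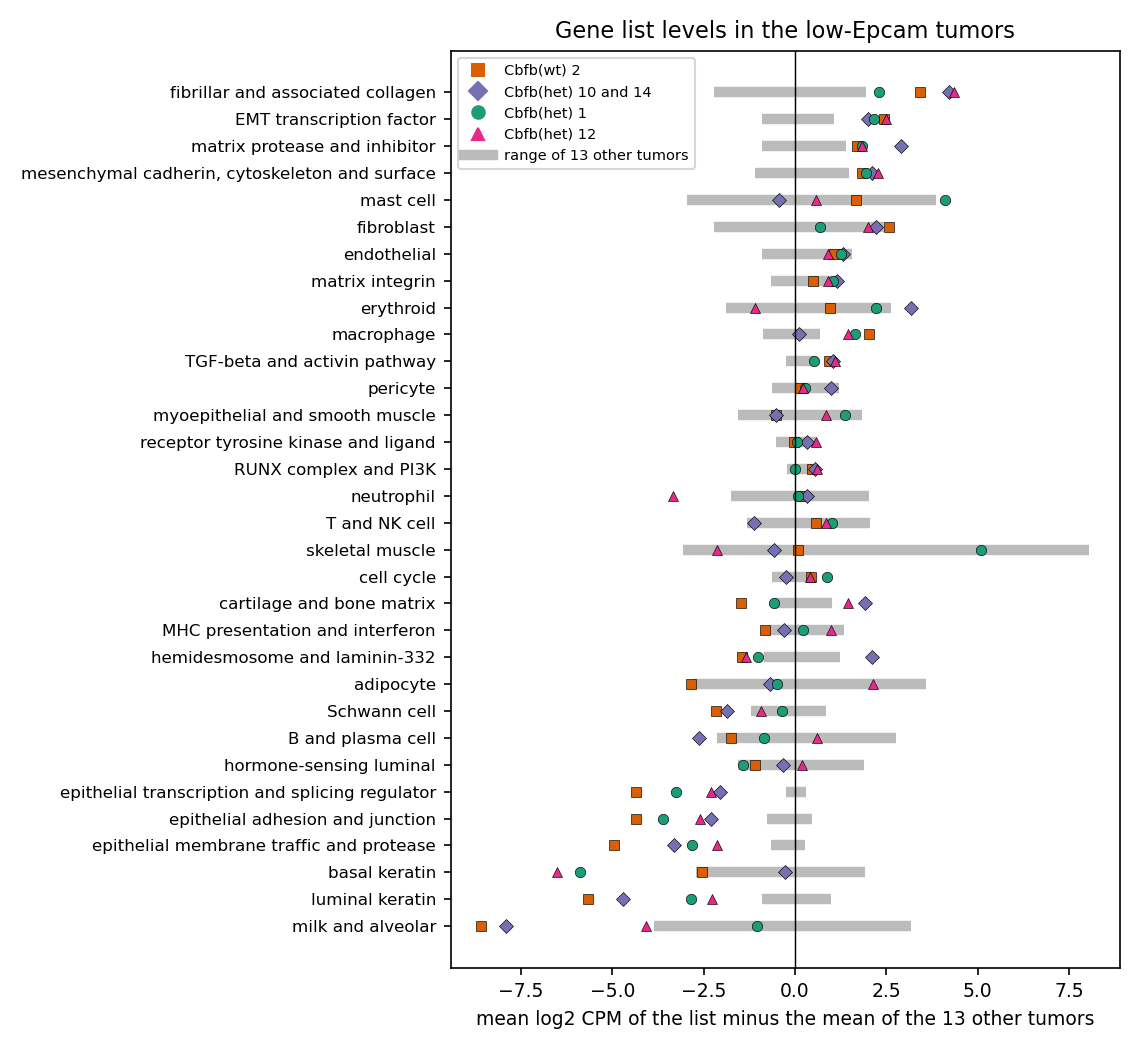
Mean log2 CPM of each of 32 gene lists minus its mean over the 13 other tumors (horizontal); colored symbols are the 4 low-Epcam tumors and grey bars the range of the 13 others. All 4 symbols lie right of the bar for collagens, EMT factors, matrix proteases and the mesenchymal surface list, and left of it for the junction, regulator, membrane and luminal keratin lists.

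The remaining markers were uneven. Mast cell markers were high in Cbfb(het) 1 (3.87) and lower in the rest (1.46, -0.65 and 0.34), where the others ran from -3.19 to 3.65. Skeletal muscle genes were at 5.66 in Cbfb(het) 1 and under 1 in the rest, where the others ran from -2.51 to 8.62, and the myogenic factor Myod1 had 0 counts in 3 low-Epcam tumors and 3 in Cbfb(het) 1. Neutrophil genes were low in Cbfb(het) 12 (0.43, beside 3.97, 4.10 and 3.85), and adipocyte genes were highest there (3.28) and lowest in Cbfb(wt) 2 (-1.71). T and NK, B and plasma and erythroid lists had none called. Of 5 Schwann cell markers, Mbp was called lower (-1.44), beside 4.53% of all genes. MHC presentation and interferon genes had none of 17 called (median 0.08), and hormone-sensing genes none of 9. Markers with 0 counts in some low-Epcam tumor included Mzb1 of plasma cells, Plin1, Lep and Retn of adipocytes, and Myod1 and Myog of muscle.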

How the data were processed

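RNA from 18 mouse mammary tumors was measured by bulk RNA-seq. Per the labels' protocols, RNA was taken with Trizol from fresh tumors and sequenced after TruSeq stranded mRNA preparation. Per the submitters' processing notes, the tools were STAR 2.7.0f and RSEM 1.3.1 and the build was mm10. For their order, strand setting and annotation, nothing is given in the sources used here. Per the file headers, each table holds RSEM expected counts, which share multi-gene reads and are not normalized, and TPM, which the authors scaled by gene length and to a fixed total. All 55450 gene IDs matched GENCODE M21 (GRCm38), which gave the positions. Between 6.20% and 7.19% of expected counts were not whole, and all were rounded.

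Groups came from Epcam expected counts as CPM of the column sum, with the threshold of 180. Levels are log2 CPM from edgeR 4.0.16 in R 4.3.3, with filterByExpr, TMM factors and a prior count of 2, and 18001 genes passed. Calls used non-overlap and a 2-fold minimum, with no p-value, since Epcam of these libraries set the groups. Genotype labels were tested with Fisher's exact test. Promoters are RefSeq windows of 250 bases (GRCm38.p6), searched on both strands for the spelled motifs. The code of the call rule was run on simulated counts with known changes, drawn around a shared mean per gene. Those counts lack the large differences among tumors of a group seen here. The run therefore checks the code and not the calls in these data.

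The members and the 32 gene lists were chosen with earlier results of these data known. Of 401 list entries, 395 passed the filter. Some list members are not reported here. Named genes were Epcam, Vim, Cbfb, Pik3ca, Runx1 to Runx3, the epithelial markers Cdh1, Krt8, Krt18, Krt19, Cldn3, Cldn4 and Cldn7, up to 5 members of each list with the largest difference, every EMT factor, the 15 largest differences each way among genes called, with a level of at least 3 in the higher group, and the 3 largest gaps in each low-Epcam tumor. Unnamed gene models were passed over. Other list members named were chosen after their values were seen, as were the motif cores CACGTG and CAGCTG. Alternatives were other scalings and filters, TPM, an edgeR quasi-likelihood fit with no p used, DESeq2 1.42.0 size factors, other fold minimums and prior counts, and leaving out tumors. The deposited FPKM was not used.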

Additional observations from a re-analysis of the deposited data

Results flagged for a closer look

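Of 246 gene and list levels checked over the 4 low-Epcam tumors, 13 had a tumor far from the rest. Its gap to the nearest of the rest exceeded Dixon's critical value as a part of the range. Chance alone gives such a gap in about 1 of 20 groups, and 13 of 246 is near that share. The flags are therefore only listed. They also overlap, since Col17a1 is in the hemidesmosome list and Retnlg in the neutrophil list. In Cbfb(het) 10/14 the hemidesmosome list (9.68), Col17a1 (10.86) and the protease list (8.41) were the highest, and Zeb2 (6.20) and the macrophage receptor Fcgr1 (3.83) the lowest. In Cbfb(het) 12 Ankrd1 (5.92) was the highest, which restates its choice as one of that tumor's largest gaps, and the neutrophil list (0.43), Retnlg (-1.64), the pericyte channel Kcnj8 (2.36) and the endothelial Plvap (5.50) the lowest. Krt27 (-3.65) was also highest there, and Defb6 (-3.69) was highest in Cbfb(wt) 2, both on a count of 1 beside 0 in the rest. In Cbfb(het) 1 the receptor phosphatase gene Ptprn (8.03) was the highest. All are log2 CPM.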

How the results depend on the processing

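Leaving out tumors moved the count of genes called higher between 660 and 1081 and of those called lower between 794 and 1247, with the highest of both without Cbfb(het) 10/14. A 4-fold minimum gave 319 and 514, log2(TPM + 1) gave 435 lower, and Cbfb(het) tumors alone gave 1025 higher. Fewer tumors make non-overlap easier, and a larger fold harder, by construction. The cause was not tested for TPM. DESeq2 size factors (692 and 794), no TMM (545 and 840), no filter (720 and 835), the edgeR fit (668 and 820) and a prior count of 0.5 (675 and 818) stayed within 1.5-fold. No named gene that was called changed direction in the alternatives run. Where tumors were left out this follows from the call rule, since every low-Epcam tumor already lay beyond every other tumor. The scalings gave medians over all genes of -0.063 (no TMM) to 0.144 (log2(TPM + 1)). A call needs a difference of at least 1, so a reversal was unlikely there too. The unchanged direction is therefore no check of the calls. The difference of each named gene was compared with the one given above in each setting that held it. In 45 of these comparisons it moved by at least the gene's SD among the 4 low-Epcam tumors, and in 5732 it did not. That SD is large for genes split among these tumors, such as Csn2 (8.07), so staying within it is easy for them. The medians of some lists (MHC and interferon, hemidesmosome, muscle, T and NK, neutrophil, adipocyte, cartilage and bone) changed sign in some settings, and no direction is given for them. No paired analysis was possible because the replicate numbers were given in accession order and pair no tumors. The Fisher p ran from 0.476 to 1 over the alternatives. With 4 low-Epcam tumors, their own spread is known only roughly, and genes with few counts rest on the prior count. Strand use in counting is not known, so overlapping antisense genes cannot be told apart.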
